A study of Mus musculus with 672 samples.

Results

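The 10 genes described here encode subunits of the Polycomb repressive complexes: Ezh1, Ezh2, Eed, Suz12 and Jarid2 of complex 2 (PRC2), and Ring1, Rnf2, Bmi1, Cbx7 and Cbx8 of complex 1 (PRC1). They were chosen by name and not by a measured value, and were found by symbol among the 46078 genes of a table of read counts. All 10 members passed the filter on low counts. PRC2 places methyl groups on lysine 27 of histone H3 through either of its paired catalytic subunits, Ezh1 or Ezh2, which work only when bound to Eed and Suz12. PRC1 attaches ubiquitin to histone H2A through Ring1 or Rnf2, and its chromobox (Cbx) subunits read the mark that PRC2 leaves. In blood, Ezh2 is known as the form of dividing cells and Ezh1 as that of resting cells, Bmi1 is known for its part in stem cell self-renewal, and Ezh2 is needed for early B cell development.

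Single cells were sorted from the bone marrow of 4 mice of the C57BL6/129Ola strain at 7 weeks of age, and their RNA was sequenced cell by cell with a full-length protocol. The 2 control mice (18218 and 18220) carried unrecombined Mbd3flox/flox alleles, and the 2 null mice (18217 and 18219) carried the deleted Mbd3del/del alleles. Mbd3 encodes a subunit of the NuRD chromatin remodelling complex, and the sources used here do not give how it was deleted. Every mouse gave 3 populations, all Lin- Sca-1+ c-Kit+ Flt3hi and B220-: lymphoid-primed multipotent progenitors (LMPP, IL-7Ra-), all-lymphoid progenitors (ALP, IL-7Ra+ Ly6D-) and B-biased lymphoid progenitors (BLP, IL-7Ra+ Ly6D+).

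Of 672 cells 561 were kept (277 control, 284 null), and most of the 111 left out were ALPs of mice 18219 and 18220. Counts of the kept cells were summed into 12 libraries, each of 1 mouse and population, with 34 to 79 cells and 53741264 to 137497554 gene counts per library. Levels are given as CPM, a gene's counts relative to the library's total after edgeR's scaling of library sizes. Mbd3 stood at 48.1 to 191 CPM in the 6 control libraries and at 0.189 to 24.7 CPM in the 6 null libraries. The 24.7 CPM were those of null LMPPs of mouse 18219, where 1 cell gave 98.3% of the Mbd3 reads, and the other 5 null libraries were at 2.88 CPM or less. The null levels do not reach 0, and the sources used here do not give which part of the gene was deleted. The transcripts of the proteins that separate the gates followed the sort. Il7r stood at 3.72 to 26.7 CPM in LMPPs and at 546 to 909 CPM in ALPs and BLPs. Ly6d stood at 1501 to 3749 CPM in BLPs and at no more than 133 CPM elsewhere. Of the proteins gated alike in all populations, Flt3 stood at 584 to 1019 CPM. Kit stood at 364 to 549 CPM in LMPPs and at 61.9 to 137 CPM in ALPs and BLPs.

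Per kilobase of exon, the scale on which genes can be compared, the members spanned about an order of magnitude. Rnf2, the main H2A ubiquitin ligase subunit, had the highest median over the 12 libraries, at 30.5 CPM per kilobase. It was followed by Ezh2 at 22.1, Eed at 18.9 and Suz12 at 14.5 CPM per kilobase. Lower medians were found for Ezh1 (7.78), Bmi1 (6.80), Jarid2 (6.15), Cbx8 (5.45), Ring1 (4.10) and Cbx7 (2.45), all in CPM per kilobase. Neighbours in this order were not separated. Rnf2 exceeded Ezh2 in 8 of 12 libraries, Ezh2 exceeded Eed in 8, and Eed exceeded Suz12 in 9. Ezh1 exceeded Bmi1 in only 5 of 12, as did Bmi1 Jarid2. The widest gap between neighbours was that of Suz12 over Ezh1, seen in 10 of 12 libraries.

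**Figure D1:**
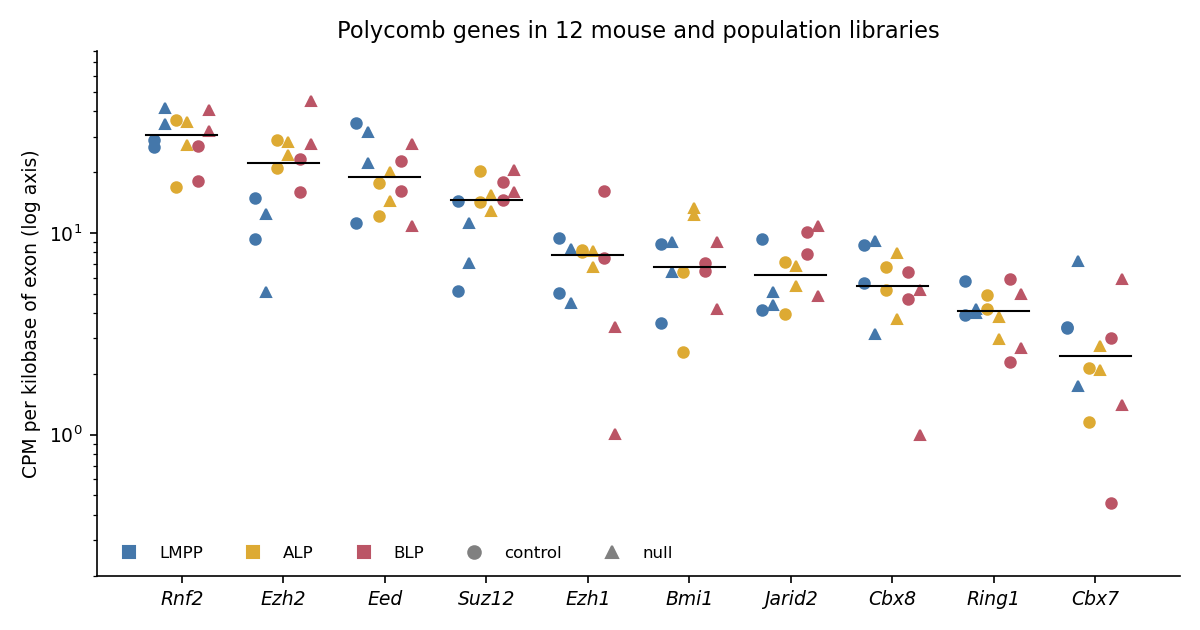
Level of each Polycomb gene in CPM per kilobase of exon (log axis) in the 12 mouse and population libraries, ordered by median (black bar), with colour for population, circles for control and triangles for null mice. Rnf2 and Ezh2 lead at 30.5 and 22.1 CPM per kilobase, Cbx7 is lowest at 2.45, and the 2 lowest points of Ezh1 are the null BLP libraries.

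Detection in single cells put Ezh2 first and Cbx7 last. With every cell thinned to 50000 gene counts, reads of Ezh2 were found in a median of 65.9% of the cells of a library, of Rnf2 in 55.9%, of Suz12 in 54.2%, and of Eed and Jarid2 in 40.5% each. Ezh1 was seen in 30.7%, Bmi1 in 27.1%, Ring1 in 20.6%, Cbx8 in 17.6% and Cbx7 in 14.5%. A cell held reads of a median of 3 members in each LMPP library and of 4 in each ALP and BLP library. Single cells weighed on most members: 1 cell gave up to 84.6% of the Cbx7 reads of a library, 56.9% for Bmi1 and 53.9% for Cbx8. This highest share was 45.7% for Ezh1, 40.6% for Rnf2, 40.5% for Ring1, 38.6% for Eed, 37.9% for Suz12 and 33.6% for Jarid2. It was lowest for Ezh2, at 28.9%.

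Ezh2 was the member that rose along the sorted populations. It encodes the catalytic subunit with the stronger methyltransferase activity (ENSMUSG00000029687, chr6:47530139-47595341, minus strand). In LMPPs it stood at 99.1 and 62.6 CPM in the control mice 18218 and 18220 and at 83.0 and 34.1 CPM in the null mice 18217 and 18219. In ALPs of the same mice the levels were 192, 140, 189 and 162 CPM, and in BLPs 156, 106, 301 and 185 CPM. All 4 LMPP libraries lay below all 8 libraries of the later gates, and ALPs and BLPs overlapped. Over both genotypes Ezh2 rose from LMPP to BLP by a log2 fold change of 1.37 ± 0.32 (SE, 2.59-fold, adjusted p = 0.0491, edgeR's quasi-likelihood test), and it was the 1 member of 10 called there, against 4.71% of all 19903 genes. An unadjusted p under 0.05 was found for 2 members and 21.1% of all genes, and DESeq2 called Ezh2 and 16.8%. Higher calls made up 2.6% of all genes, and with mouse as a replicate block Ezh2 (1.41, adjusted p = 0.0164) and 3.66% of all genes were called. The call was just inside the threshold and was lost without any 1 of the 4 mice (1.28 to 1.57, adjusted p from 0.115 to 0.267) and when the small ALP libraries of 18219 and 18220 were left out (1.37, adjusted p = 0.132).

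Most of that difference lay between LMPP and ALP, where Ezh2 was higher by 1.31 ± 0.32 without passing the test (adjusted p = 0.120). Here edgeR called 0 of 10 members and 1.09% of all genes, with 1 member and 13.2% at an unadjusted p under 0.05, and DESeq2 called Ezh2 and 7.55% of all genes. With mouse as a replicate block the value was 1.38 and passed (adjusted p = 0.0355), with 0.909% of all genes called. From ALP to BLP the Ezh2 log2 fold change was 0.07 ± 0.32 (adjusted p = 0.988), with 0 members and 0.0402% of all genes called by edgeR, 0 members and 9.7% at an unadjusted p under 0.05, and 0 members and 3.76% called by DESeq2. Within genotypes, the LMPP to BLP difference of Ezh2 was 0.70 ± 0.45 in control (adjusted p = 0.524) and 2.05 ± 0.47 in null mice (adjusted p = 0.0843). With mouse as a replicate block the null value passed (2.12 ± 0.27, adjusted p = 0.0388). The interaction between them was 1.36 ± 0.64 (adjusted p = 0.728).

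Cycling markers and lineage markers also differed between the gates. The share of cells with a read of Mki67, a protein of dividing cells, was 19.2 to 40.0% in LMPPs, 23.8 to 51.9% in ALPs and 25.7 to 55.6% in BLPs, so the ranges overlapped. Summed over 7 myeloid markers the level was 1257 to 2149 CPM in LMPPs, 336 to 1039 CPM in ALPs and 153 to 446 CPM in BLPs. Summed over 9 early B markers it was 69.7 to 165 CPM in LMPPs, 118 to 996 CPM in ALPs and 1413 to 2300 CPM in BLPs. For 5 dendritic cell markers it was 253 to 443 CPM in LMPPs, 367 to 1802 CPM in ALPs and 1630 to 2843 CPM in BLPs, and Cd209d among them was at 0 in every group but control LMPPs. Their part in the Ezh2 difference was not tested.

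Ezh1, the paralogue of Ezh2 with weaker catalytic activity (ENSMUSG00000006920, chr11:101191115-101226463, minus strand), did not follow it. In LMPPs it stood at 69.9 and 37.4 CPM in controls 18218 and 18220 and at 33.4 and 62.1 CPM in nulls 18217 and 18219. In ALPs the 4 libraries lay close together, at 59.7, 61.1, 60.4 and 50.2 CPM in the same order. In BLPs they spread to 56.0 and 120 CPM in controls and 7.52 and 25.5 CPM in nulls. The BLP difference was the largest between genotypes of any member in the 3 populations. Null BLPs had a log2 fold change of −2.42 ± 0.65 over control BLPs, which did not pass the test over all genes (unadjusted p = 0.00521, adjusted p = 0.467, edgeR's quasi-likelihood test).

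Among the 19903 genes 0.01% were called between genotypes in BLPs and 8.83% had an unadjusted p under 0.05, against 0 and 1 of the 10 members. DESeq2 called Ezh1 there (adjusted p = 0.00655), along with 4.02% of all genes. In the null BLP libraries 1 cell held 39.7% and 45.7% of the Ezh1 reads, and Ezh1 was read in 8.33% and 14.3% of cells there, against 29.4% and 48.6% of control BLPs. The difference in the share of cells was −27.7 percentage points (exact permutation p = 0.333, the smallest that 2 mice against 2 allow). By summed level the Ezh1 difference between genotypes was smaller than its standard error in LMPPs (−0.17 ± 0.62) and ALPs (−0.13 ± 0.62). By share of cells it was −11.3 percentage points in LMPPs, from 31.9% in control to 20.6% in null mice (exact permutation p = 0.333). In ALPs it was −3.84 percentage points (exact permutation p = 0.667). The genotype effect in BLPs minus that in ALPs was −2.29 ± 0.88 (adjusted p = 0.776). In the same gate the myeloid markers summed to 153 to 275 CPM in control and 424 to 446 CPM in null BLPs, and their part in the Ezh1 difference was not tested.

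**Figure D2:**
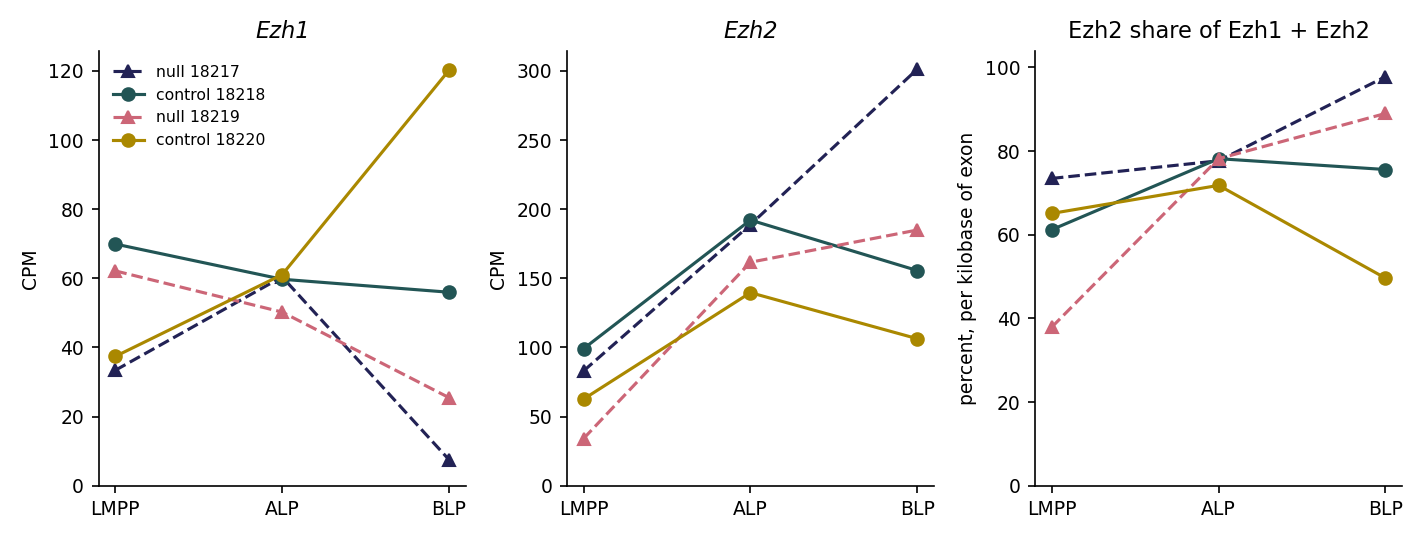
Ezh1 and Ezh2 in CPM and the Ezh2 share of both per kilobase of exon (percent), for each of the 4 mice across LMPP, ALP and BLP, with solid lines for control and dashed lines for null mice. Ezh2 climbs from LMPP to ALP in all 4 mice, and in BLP Ezh1 is at 56.0 and 120 CPM in the 2 control mice and at 7.52 and 25.5 CPM in the 2 null mice.

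As a pair, Ezh2 supplied most of the catalytic subunit transcripts. Its share of Ezh1 plus Ezh2 per kilobase of exon ranged from 37.9 to 97.8%, with a median of 74.5% over the 12 libraries. In LMPPs the share was 61.2 and 65.1% in controls 18218 and 18220 and 73.5 and 37.9% in nulls 18217 and 18219. In ALPs it was 78.2, 71.8, 77.7 and 78.2%, and in BLPs 75.6, 49.6, 97.8 and 89.0%. Ezh1 exceeded Ezh2 in 2 of 12 libraries, null LMPPs of mouse 18219 and, narrowly, control BLPs of mouse 18220. From LMPP to ALP the mean share went from 59.4 to 76.5%, higher in 4 of 4 mice (exact sign-flip p = 0.13, the smallest 4 mice allow, 0.75 adjusted over 36 share comparisons). In BLPs it was 62.6 ± 18.4% in control and 93.4 ± 6.22% in null mice (SD, n = 2 each, exact permutation p = 0.333).

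In single cells the paralogues were not exclusive. At 50000 gene counts, 256 of 561 cells had reads of Ezh2 alone, 57 of Ezh1 alone, 109 of both and 139 of neither. Null BLPs held the fewest cells with Ezh1, with 2 and 4 cells that had both and 1 cell in each library that had Ezh1 alone.

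The stretches upstream of the paralogues' start sites differ in composition, and they are shown because the balance of Ezh1 and Ezh2 differed between libraries. Both are RefSeq sequences on build GRCm38.p6, written 5′ to 3′ on the gene's strand. Capitals mark the CCAAT word (CCAAT, or ATTGG on the other strand), the box bound by NF-Y at many promoters of cell cycle genes. The Ezh1 stretch (chr11:101226464-101226713, minus strand) is the 250 bases before the start. The Ezh2 stretch (chr6:47595059-47595183, minus strand) covers bases 29 to 153 before it.
Ezh1: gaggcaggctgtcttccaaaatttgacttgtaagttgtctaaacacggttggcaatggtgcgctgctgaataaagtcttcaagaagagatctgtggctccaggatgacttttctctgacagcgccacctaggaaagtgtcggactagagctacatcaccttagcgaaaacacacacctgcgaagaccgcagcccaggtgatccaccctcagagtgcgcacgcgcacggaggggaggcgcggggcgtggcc
Ezh2: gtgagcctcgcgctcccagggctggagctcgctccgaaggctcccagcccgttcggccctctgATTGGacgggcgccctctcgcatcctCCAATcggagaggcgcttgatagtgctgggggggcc
The Ezh2 stretch holds a pair of CCAAT words at 90 and 64 bases before the start in opposite orientation. A further one (ATTGG) lies at 11 bases before the start, outside the printed stretch. Over the same 250 bases before the start the G and C content is 63.6% for Ezh2 and 55.2% for Ezh1, and Ezh1 holds no CCAAT word there. Among the 11 RefSeq promoters of the 10 members, taken as 250 bases before the start, 45.5% held the CCAAT word and 18.2% held at least 2, against 33.9% and 10.1% of all 32851 promoters. The members' promoters had a median of 22 CpG dinucleotides (12 to 37), against 6 over all promoters. A match is a description of these letters.

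Suz12, which holds the PRC2 core together (ENSMUSG00000017548, chr11:79993106-80034123, plus strand), was lowest in LMPPs. It stood there at 25.5 and 71.3 CPM in controls 18218 and 18220 and at 55.6 and 35.2 CPM in nulls 18217 and 18219. In ALPs the levels were 70.1, 100.2, 63.5 and 76.2 CPM, and in BLPs 72.2, 88.6, 79.0 and 101.1 CPM. BLPs lay above all LMPP libraries, ALPs overlapped LMPPs, and Suz12 was not called (LMPP to BLP 0.86 ± 0.33, adjusted p = 0.183, edgeR). Suz12 was read in 39.4% of LMPPs, 60.0% of ALPs and 55.0% of BLPs on average over mice.

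Eed, the subunit that reads trimethylated lysine 27 and stimulates the enzyme (ENSMUSG00000030619, chr7:89954654-89980983, minus strand), spread most among LMPPs. It stood at 42.8, 135, 121 and 85.0 CPM there, at 67.7, 46.7, 76.6 and 55.2 CPM in ALPs and at 62.1, 86.6, 105 and 41.4 CPM in BLPs, in the order of mice 18218, 18220, 18217 and 18219. The 3 ranges overlapped (LMPP to BLP −0.37 ± 0.42, adjusted p = 0.672).

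Jarid2, an accessory subunit that helps recruit PRC2 (ENSMUSG00000038518, chr13:44729474-44921643, plus strand), ranged from 38.7 to 106 CPM. Its LMPP to BLP value was 0.57 ± 0.36 (adjusted p = 0.401), with the highest level in null BLPs of mouse 18219. With Suz12 and Ezh2 it was 1 of 3 members above 0 from LMPP to BLP, and the other 7 were below. The members' median was −0.18, against −0.01 over all genes.

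Of the paired ligase subunits of PRC1, Rnf2 was by far the more abundant. Rnf2 (ENSMUSG00000026484, chr1:151458004-151500955, minus strand) stood at 69.6 to 172 CPM and Ring1 (ENSMUSG00000024325, chr17:34020792-34024680, minus strand) at 7.47 to 19.2 CPM. Per kilobase of exon Rnf2 made up 77.5 to 93.8% of both, with a median of 89.0%, and it led in every library. This share moved little between gates, from 87.7% in LMPPs to 86.9% in ALPs and 87.8% in BLPs. Reads of Rnf2 alone were found in 250 of 561 cells, of Ring1 alone in 45, of both in 68 and of neither in 198. Neither gene was called by edgeR in any comparison of gates or genotypes. Their LMPP to BLP values were −0.19 ± 0.25 for Rnf2 and −0.17 ± 0.42 for Ring1.

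Bmi1, the PRC1 subunit also called Pcgf4 (ENSMUSG00000026739, chr2:18677018-18686629, plus strand), differed most between genotypes in ALPs. Control ALPs had 25.6 and 10.2 CPM in mice 18218 and 18220, and null ALPs 53.0 and 48.8 CPM in mice 18217 and 18219. The log2 fold change of 1.51 ± 0.62 did not pass the test (unadjusted p = 0.0378, adjusted p = 1, edgeR), and 0.00502% of all genes did. The unadjusted p was under 0.05 for 4.5% of all genes and for 1 of 10 members in ALPs. In LMPPs Bmi1 stood at 14.2, 35.0, 25.5 and 35.9 CPM and in BLPs at 28.2, 25.8, 35.9 and 16.6 CPM, with overlapping genotypes. Among Pcgf1 to Pcgf6, which share its place in PRC1, Bmi1 made up 8.81 to 28.4% per kilobase of exon (median 17.9%). That share was 12.8% in control and 28.0% in null ALPs (exact permutation p = 0.333). Lineage markers also differed between the genotypes in this gate. Early B markers summed to 118 to 202 CPM in control and 587 to 996 CPM in null ALPs, myeloid markers to 336 to 648 and 975 to 1039 CPM, and dendritic cell markers to 1062 to 1802 and 367 to 549 CPM. Their part in the Bmi1 difference was not tested.

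The chromobox members were low and uneven. Cbx7, a reader of the PRC2 mark (ENSMUSG00000053411, chr15:79915807-79971119, minus strand), stood at 11.3 to 46.9 CPM in LMPPs, 7.49 to 17.9 CPM in ALPs and 2.97 to 38.4 CPM in BLPs. Its exons share 100 bases with the opposite-strand gene Apobec3, which had 430724 reads in all 672 cells against 17639 for Cbx7. The sources used here do not give the strand setting of the counting, and Cbx7 counts may hold Apobec3 reads. The exons of Rnf2, Ezh2, Suz12 and Eed share 158 to 261 bases with opposite-strand genes. Cbx8 (ENSMUSG00000025578, chr11:119036305-119040969, minus strand) stood at 11.7 to 33.5 CPM in LMPPs, 13.8 to 29.3 CPM in ALPs and 3.65 to 23.6 CPM in BLPs. Of 561 cells 65 had reads of Cbx7 alone, 79 of Cbx8 alone, 18 of both and 399 of neither.

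Between both readers, Cbx8 made up 41.4 to 93.3% of Cbx7 plus Cbx8 per kilobase of exon, with a median of 63.5%. In LMPPs its share was 72.2 and 62.4% in controls 18218 and 18220 and 64.6 and 55.8% in nulls 18217 and 18219. In ALPs it was 81.9, 75.9, 79.2 and 57.5%, and in BLPs 60.9, 93.3, 41.4 and 46.8%. The BLP means were 77.1% in control and 44.1% in null mice (exact permutation p = 0.333, adjusted 1). From LMPP to BLP Cbx7 and Cbx8 were at −0.63 ± 0.72 and −0.68 ± 0.57 on the log2 scale (adjusted p = 0.683 and 0.55, edgeR), and Cbx2, another chromobox gene of PRC1, was at 1.10 ± 0.27 (adjusted p = 0.0537).

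Between genotypes, edgeR called 0 of the 10 members in LMPPs (0% of all genes called, 6.76% at an unadjusted p under 0.05) and 0 in ALPs and BLPs. DESeq2 also called 0 members in LMPPs and ALPs, against 2.49% and 1.36% of all genes. The members' median log2 fold change of null over control was −0.13 in LMPPs, 0.11 in ALPs and −0.03 in BLPs, with all genes at −0.02, 0 and −0.01. In LMPPs the members ran from −0.51 (Jarid2) to 0.46 (Rnf2), and none had an unadjusted p under 0.05. With the populations summed per mouse, 0 members and 0% of 21047 genes were called. Ezh1 was at −0.60 ± 0.19 (adjusted p = 0.640) and Bmi1 at 0.63 ± 0.23 (adjusted p = 0.699) there, the 2 members with an unadjusted p under 0.05, against 7.04% of all genes. DESeq2 called 2.83% of all genes in that sum and 0 members.

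**Figure D3:**
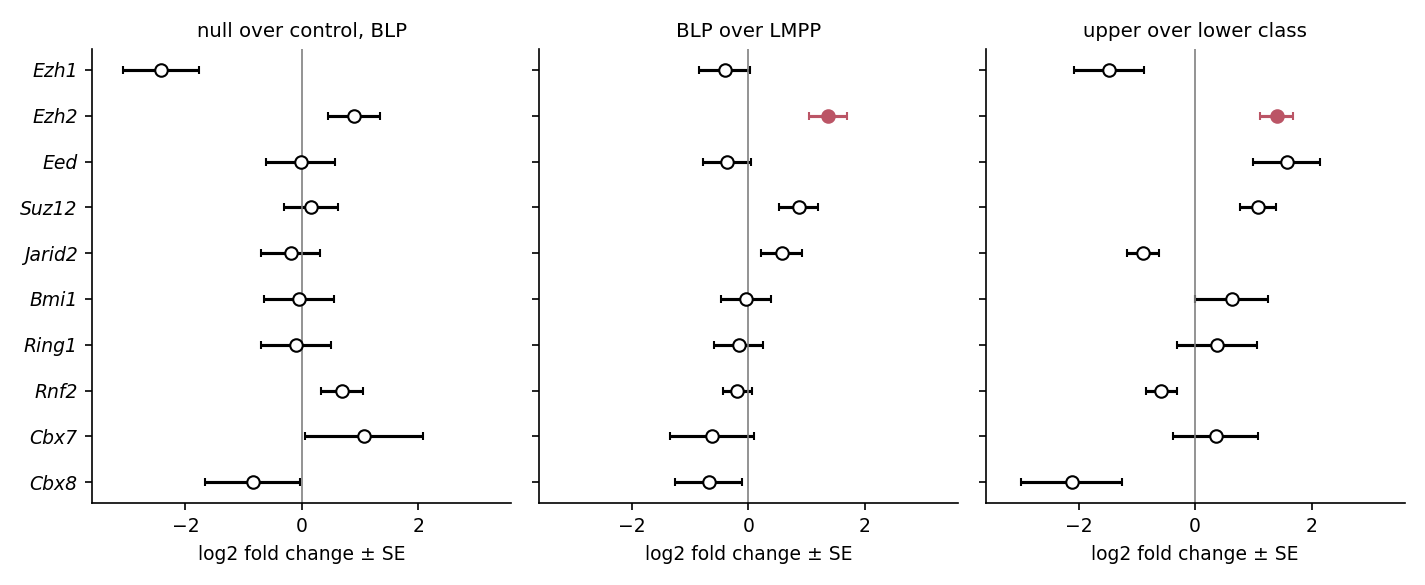
Log2 fold change with its standard error (edgeR) of the 10 members for null over control BLPs, BLP over LMPP over both genotypes, and the upper over the lower class of cells by cell cycle score. Filled points passed the adjusted threshold. Ezh2 is the filled point at 1.37 for BLP over LMPP and at 1.40 for the cycle classes, and Ezh1 lies at −2.42 in BLPs without passing.

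To relate the members to cycling, each cell was scored by its mean log2(CPM + 1) over 22 S phase genes and 24 G2 and M phase genes at 50000 gene counts, and no Polycomb gene was in the score. Within each of the 12 libraries cells were ranked and split into classes of near-equal size, with 182 cells in the lower, 197 in the middle and 182 in the upper class. A class is a range of a continuous score. Within 0.1 score units of an edge lay 26 cells at the upper and 45 at the lower one. Mki67 was read in at most 26.7% of lower-class cells and in at least 40.0% of upper-class cells of a library. The classes differed in more than cycling genes: at equal depth upper-class cells had a median of 4148 to 5402 detected genes and lower-class cells 3327 to 4350, higher in 12 of 12 libraries. Total gene counts per cell were higher in 10 of 12, and the spike-in share was lower in 11 of 12 (5.17 to 13.7% against 9.29 to 18.5%). The part of RNA content in the results on classes was not tested.

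Ezh2 rose with the score. In ALPs its level went from 121 CPM in the lower to 237 CPM in the upper class of mouse 18218, from 74.3 to 260 CPM in 18220, from 89.9 to 281 CPM in 18217 and from 132 to 168 CPM in 18219. In BLPs of the same mice it went from 73.0 to 286, 19.4 to 179, 122 to 279 and 73.7 to 286 CPM. In LMPPs 2 libraries went up, from 32.8 to 178 CPM (18218) and from 36.7 to 105 CPM (18217), and 2 did not, at 69.6 and 64.7 CPM (18220) and 25.8 and 23.2 CPM (18219). Over the 3 populations the log2 fold change was 1.40 ± 0.29 (2.64-fold, adjusted p = 0.0326, edgeR's quasi-likelihood test with the library as a block). Ezh2 was the 1 member called, against 3.46% of all 18428 genes, 2.66% called higher and 3.24% with the 46 genes of the score set aside. The call was lost with the G2 and M phase list alone (1.12, adjusted p = 0.0917), with the S phase list alone (1.29, 0.113), and with a split by Mki67 reads (0.66, 0.212). Leaving out each mouse in turn gave 1.22 to 1.56 (adjusted p from 0.105 to 0.26).

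By share of cells the same order was seen through the middle class. Ezh2 was read in 42.8 ± 12.4% of lower, 69.4 ± 7.97% of middle and 81.9 ± 7.48% of upper-class cells (SD over 4 mice), higher in upper than lower in 4 of 4 mice and 11 of 12 libraries (exact sign-flip p = 0.13, 0.25 adjusted over 10 members). Without thinning the difference was 4.07 percentage points, and Ezh2 was then read in 89.4 to 100% of the cells of a library. Genes as widely detected as the members also leaned this way: of 7129 genes read in 14.8 to 65.1% of cells, 83.4% had a higher share in the upper class, with a median difference of 8.12 percentage points. The members' median difference was 6.57, so as a set they did not stand above that level, while Ezh2 was at 39.2 and Suz12 at 34.1 percentage points.

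**Figure D4:**
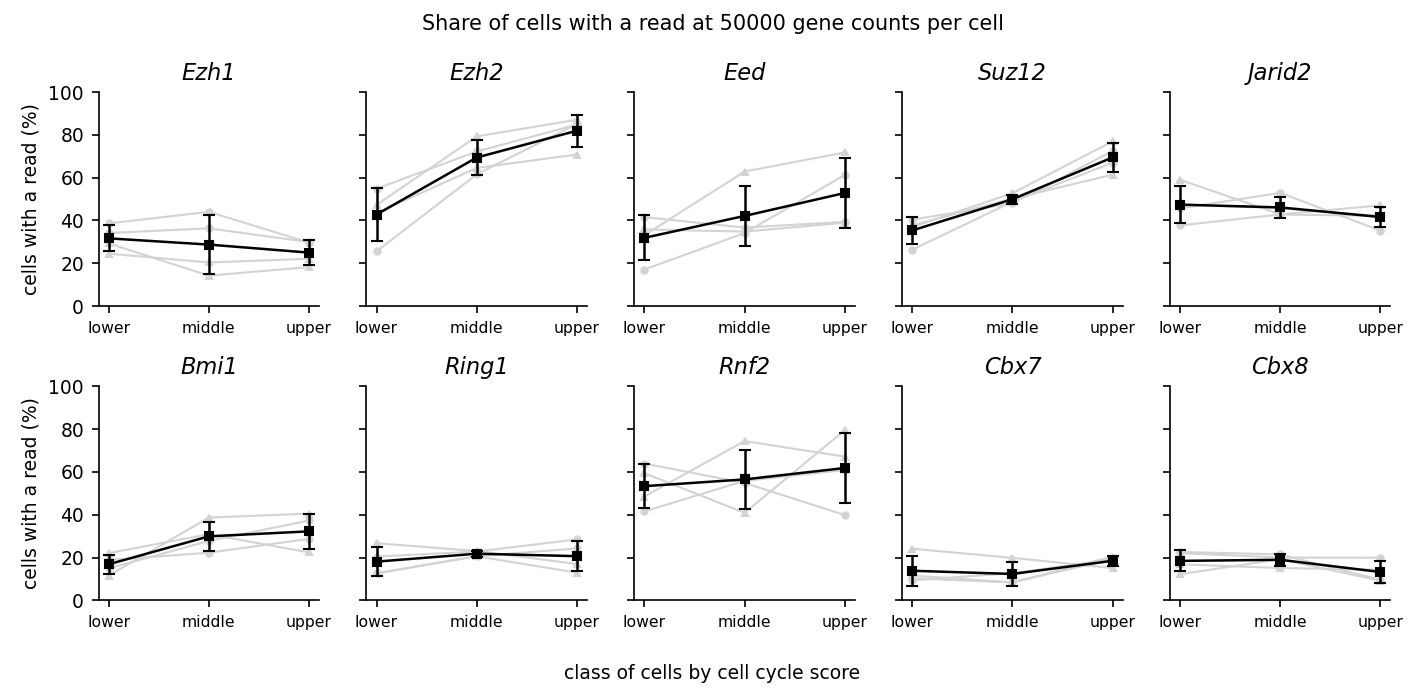
Share of cells with a read of each member at 50000 gene counts per cell (percent), in the lower, middle and upper class by cell cycle score. Grey lines are the 4 mice, and black squares the mean with SD. Ezh2 goes from 42.8 to 81.9% and Suz12 from 35.3 to 69.4%, while Ezh1 goes from 31.6 to 25.0%.

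Suz12 was higher in the upper class in 12 of 12 libraries by level and in 12 of 12 by share of cells, which 4.35% of genes as widely detected also were by share. For counts of libraries by level, here and for the members below, no such share over genes was computed. Its share went from 35.3 ± 6.18 over 49.9 ± 2.10 to 69.4 ± 6.73% (SD over 4 mice). In LMPPs its level went from 22.2 to 32.1, 34.6 to 129, 23.3 to 71.5 and 28.2 to 45.3 CPM in mice 18218, 18220, 18217 and 18219. In ALPs it went from 44.0 to 94.9, 112 to 123, 40.0 to 87.0 and 64.4 to 72.2 CPM. In BLPs it went from 33.8 to 137, 67.8 to 82.0, 72.0 to 98.0 and 23.9 to 186 CPM. The size of the step thus varied widely between mice while its direction did not. The log2 fold change of 1.08 ± 0.31 missed the threshold in the blocked fit (adjusted p = 0.116) and passed without the library block (adjusted p = 0.0365, where 2 members and 6.13% of all genes were called).

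The promoter of Suz12 is shown as that of the member whose direction with the score was the steadiest. Capitals mark an E2F word (TTCCCGC), a CHR word (TTCAAA, which is TTTGAA on the other strand) and a CCAAT word, at 218, 203 and 61 bases before the start. The stretch is the 250 bases before the RefSeq start on GRCm38.p6 (chr11:79992856-79993105, plus strand), with 37 CpG dinucleotides.
Suz12: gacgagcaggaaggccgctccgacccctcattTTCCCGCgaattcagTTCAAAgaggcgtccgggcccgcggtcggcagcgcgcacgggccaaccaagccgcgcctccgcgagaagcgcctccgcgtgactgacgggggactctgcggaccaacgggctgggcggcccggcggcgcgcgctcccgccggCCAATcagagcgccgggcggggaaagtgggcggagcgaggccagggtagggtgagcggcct
E2F factors and the complexes that bind CHR elements are known regulators of cell cycle genes. On either strand, an E2F word (TTCCCGC or TTCGCGC or TTGGCGC or TTGCCGC) was found in 9.09% of the 11 member promoters, which is Suz12 alone, and in 7.89% of all 32851. The CHR word was found in 27.3% of member promoters (Eed, Suz12 and Cbx7) and in 16.0% of all. Among 11 promoters, 1 promoter is 9.09%, and no factor's binding was measured.

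Eed, the third core subunit, was higher in the upper class in 11 of 12 libraries by level, with a wide spread. Its largest steps were in mouse 18220, from 5.34 to 100.4 CPM in ALPs and from 2.36 to 160 CPM in BLPs, and it was lower in the upper class only in null BLPs of mouse 18219 (78.6 and 52.0 CPM). The log2 fold change was 1.57 ± 0.58 (adjusted p = 0.239). Cells with reads of all of Ezh2, Eed and Suz12 made up 14 of 182 lower-class cells (7.69%), 27 of 197 middle-class cells (13.7%) and 66 of 182 upper-class cells (36.3%). Cells with reads of none of these core genes made up 26.9%, 11.2% and 3.85%. These cells were pooled over mice, and no other set of genes was counted beside them. Upper-class cells had more detected genes at equal depth, and the part of this in these counts was not tested.

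None of the other members was called with the score. Ezh1 was lower in the upper class in 11 of 12 libraries by level (−1.48 ± 0.60, adjusted p = 0.298). The exception was control BLPs of mouse 18220, at 63.0 CPM in the lower and 109 CPM in the upper class. Jarid2 was lower in 10 of 12 (−0.90 ± 0.27, adjusted p = 0.139) and Cbx8 in 11 of 12 (−2.12 ± 0.87, adjusted p = 0.307). In BLPs Cbx8 stood at 7.04 to 34.1 CPM in the lower class and at no more than 0.361 CPM in the upper class of 3 of 4 mice. Rnf2 was at −0.58 ± 0.27, Bmi1 at 0.62 ± 0.64, Ring1 at 0.38 ± 0.69 and Cbx7 at 0.35 ± 0.73, with adjusted p of 0.375, 0.857, 1 and 1. The signs of Ring1, Cbx7 and Bmi1 turned under other ways of splitting the cells. By share of cells Bmi1 went from 16.9 ± 4.56% in the lower to 32.3 ± 8.24% in the upper class (SD over 4 mice), higher in 4 of 4 mice and 8 of 12 libraries (exact sign-flip p = 0.13, 0.25 adjusted over 10 members). Counting only cells with 3 or more reads, the Bmi1 difference was 3.91 percentage points, against 15.4 with any read. Rnf2 was read in 53.4% of lower and 61.9% of upper-class cells, higher in 9 of 12 libraries, while its level was higher in 4 of 12. In all, 6 members lay above and 4 below 0, with a median of 0.36 against 0.11 over all genes. An unadjusted p under 0.05 was found for 6 members and for 13.9% of all genes, and DESeq2 called 6 members and 15.5% of all genes. No member differed between genotypes in this step by edgeR, where 0% of all genes were called, or by DESeq2, which called 1.42%. The smallest unadjusted p was that of Rnf2 (null minus control 1.22 ± 0.53, p = 0.0468, adjusted p = 1), with 2.94% of all genes under an unadjusted p of 0.05.

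The Ezh2 share of the catalytic pair was higher in the upper class of all 12 libraries. Averaged over the populations of a mouse it went from 51.6 ± 7.49 to 81.7 ± 9.20% (SD, n = 4, exact sign-flip p = 0.13, 0.429 adjusted over 24 comparisons). The step was seen within each population, from 37.1 to 71.3% in LMPPs, 58.1 to 88.7% in ALPs and 59.4 to 85.0% in BLPs. It was smallest in LMPPs of mice 18220 (64.8 to 69.2%) and 18219 (30.5 to 38.6%) and largest in LMPPs of mouse 18218 (21.1 to 94.1%). Pooled over mice, cells with reads of Ezh1 alone numbered 37 of 182 in the lower, 15 of 197 in the middle and 5 of 182 in the upper class. Cells with Ezh2 alone numbered 55, 94 and 107, cells with both 24, 43 and 42, and cells with neither 66, 45 and 28. Any read of Ezh1 was found in 31.6% of lower and 25.0% of upper-class cells (means over 4 mice, exact sign-flip p = 0.13). For Ezh2 these shares were 42.8 and 81.9%. Wider detection of Ezh2 by itself lowers the count of cells with Ezh1 alone, and its part in that fall was not tested. The Cbx8 share of Cbx7 plus Cbx8 was 63.3 ± 26.7% in the lower and 48.0 ± 13.5% in the upper class (exact sign-flip p = 0.25), higher in 1 of 4 mice and 5 of 12 libraries.

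**Figure D5:**
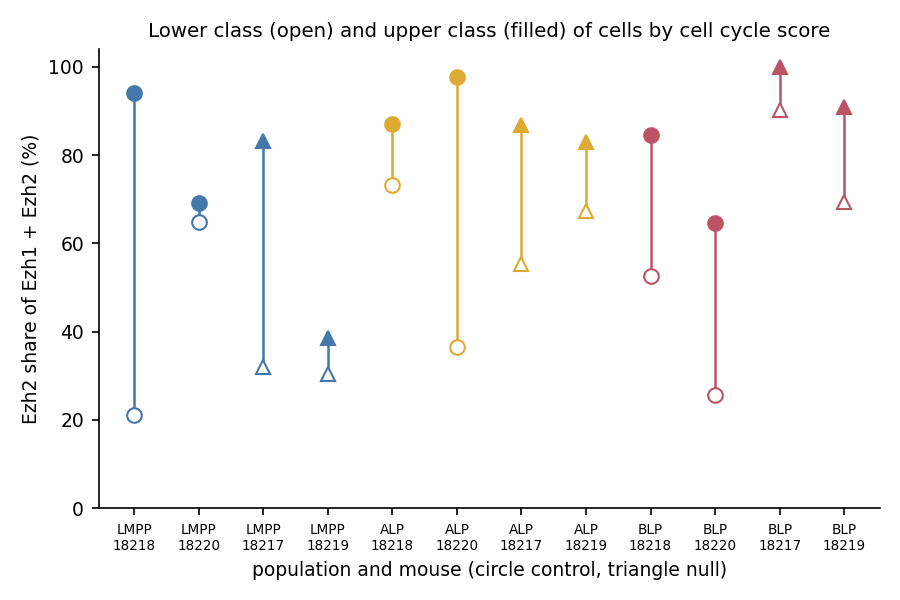
Ezh2 share of Ezh1 plus Ezh2 per kilobase of exon (percent) in the lower (open) and upper (filled) class of cells by cell cycle score in each library, with circles for control and triangles for null mice. The upper class is above the lower in 12 of 12 libraries, by the least in LMPPs of mouse 18220 and by the most in LMPPs of mouse 18218.

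Of 8 other PRC2 genes, 2 rose with the cycle score and none fell, against 2.66% of all genes called higher. Rbbp7, a histone chaperone shared with NuRD, rose by 1.36 ± 0.17 (adjusted p = 0.00207, edgeR), and Phf19, an accessory subunit that reads methylated lysine 36, by 5.81 ± 1.26 (adjusted p = 0.0403) at no more than 19.7 CPM in any of the 12 libraries. The Phf19 call was lost without any 1 of the 4 mice (5.16 to 6.52, adjusted p from 0.144 to 0.197) and by the Mki67 split (2.85, 0.384). That of Rbbp7 was lost without null mouse 18217 (1.43, 0.0638) or 18219 (1.27, 0.106) and by the Mki67 split (0.45, 0.311). Their median was 0.44. Phf1, which holds the same place as Phf19, was at −4.02 ± 1.15 (adjusted p = 0.114). From LMPP to BLP, Rbbp7 fell (−0.53 ± 0.11, adjusted p = 0.0268, and 0.0501 with mouse as a replicate block), a call lost without any 1 mouse (−0.60 to −0.46, adjusted p from 0.174 to 0.261). Aebp2 was at 0.96 ± 0.24 (adjusted p = 0.0634). Of 22 other PRC1 genes, 0 were called with the score (median −0.10), with Scml2 closest at 7.63 ± 1.48 (adjusted p = 0.0531). Scml2 rests on few cells, at no more than 7.03 CPM in any of the 12 libraries. It was read in a median of 3.52% of the cells of a library, and 1 cell gave a median of 53.5% of its reads. No gene of either list was called between genotypes by edgeR in any of the 3 populations.

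Polycomb is opposed by H3K27 demethylases and by the H2A deubiquitinase of Bap1 and the Asxl proteins. None of the 7 such genes was called between gates or genotypes, and none of the 6 tested with the score. From LMPP to BLP 6 of 7 lay above 0 (median 0.60, against −0.01 over all genes), led by Asxl2 at 0.86 ± 0.30 (adjusted p = 0.148). Asxl3, among these 6 at 0.78 ± 0.92, was close to absent, at no more than 0.143 CPM in any library. With the score the demethylase Kdm6b was at −1.27 ± 0.36 (adjusted p = 0.103).

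Of 5 loci known as Polycomb targets in blood progenitors, 3 passed the filter on low counts. The B lineage factors Ebf1 and Pax5 rose from LMPP to BLP (8.14 ± 0.23, adjusted p = 1.59e-06, and 8.39 ± 0.67, adjusted p = 0.000539, edgeR). The cell cycle inhibitor Cdkn1c was called lower (adjusted p = 0.0277), but it rests on few cells, at 0.145 to 3.37 CPM in LMPPs and no more than 0.0245 CPM in BLPs. It was read in at most 5% of the cells of a library, 1 cell gave a median of 88.1% of its reads, and it was not called within control (adjusted p = 0.221) or null mice (0.111). With the cycle score Ebf1 fell (−1.34 ± 0.20, adjusted p = 0.00647) and Pax5 was at −1.99 ± 0.61 (adjusted p = 0.139). The cell cycle inhibitor Cdkn2a, the best known Polycomb target, had 87 reads in all 561 cells, 83 of them in 1 library, and Cdkn2b had 44 reads in 1 library.

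Over the 12 libraries, the genes whose log2(CPM + 1) followed that of Ezh2 most closely among 7452 genes were Incenp (r = 0.951), a subunit of the chromosomal passenger complex of mitosis, the lymphoid transcription factor Ikzf1 (0.940) and the T cell receptor chain Cd247 (0.925). For Ezh1 they were Fam98c (r = 0.895), the chloride transporter Clcn4 (0.877) and Ints12 (0.873), a subunit of the Integrator complex. These Pearson values share the 12 libraries and the gates between them, and Incenp took no part in the cycle score.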

How the data were processed

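The authors deposited read counts as whole numbers per gene and cell. The submitters' processing notes name GSNAP, HTSeq 0.5.3p3 and mm10, and the annotation release and strand setting are not stated there. Reads carry no molecular identifiers and were not reduced to molecules. Spike-ins (6.13% of all entries), unaligned reads (33.0%), reads on no feature (11.6%) and ambiguous reads (6.08%) were left out of every total and fit. Symbols, exons and coordinates came from GENCODE M21 on GRCm38 (mm10).

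Kept cells had 50000 or more counts on nuclear genes, 1000 or more such genes detected, and no more than 20% mitochondrial or 50% spike-in counts. No doublet caller was run on these single sorted cells, and no pair of cells had identical counts. Counts were summed per mouse and population (12 libraries), per mouse (4) and per cycle class (24), and tested with edgeR 4.0.16 (TMM, filterByExpr, quasi-likelihood test, R 4.3.3) with Benjamini-Hochberg adjustment over all genes. The adjusted threshold was 0.05. The biological coefficient of variation was 86.9%, 68.2% and 94.8%, with 6, 2 and 6 residual degrees of freedom. Alternatives used DESeq2 1.42.0, limma 3.58.1, other filters, scalings, scores and left-out mice. Each mouse gave all 3 populations, so the titles pair the libraries, and the deviations of paired libraries from their group means correlated at 0.029 to 0.051 over genes. Shares were compared by two-sided exact permutation or sign-flip tests over mice (SciPy 1.17.1). For shares of cells, each cell was thinned at random to 50000 gene counts.

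The edgeR steps were tested on simulated data with 50 genes changed at each fold size. For LMPP to BLP (19433 genes) 10% of 2-fold, 22% of 4-fold and 60% of 16-fold changes were found, and for the cycle classes (17845 genes) 0%, 16% and 50%, so smaller changes of single genes were mostly not detectable.

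All 10 members are given. Of the other Polycomb lists, genes past the threshold and up to 4 with the smallest p may be named per comparison, apart from results not reported here, and for Ezh1 and Ezh2 the 3 genes most alike over the libraries at a mean of at least 20 CPM, apart from pseudogenes, predicted genes, Y-linked genes, Xist, Tsix and antigen receptor segments. The members and lists were chosen with earlier results of these data known. The CCAAT and CHR words and the transcript length used as an alternative for the shares were chosen after seeing the data.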

Additional observations from a re-analysis of the deposited data

Results flagged for a closer look

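From ALP to BLP the Ezh2 share of Ezh1 plus Ezh2 per kilobase of exon moved in opposite directions in the 2 genotypes. The BLP minus ALP difference was −2.59 percentage points in control mouse 18218 and −22.2 in control mouse 18220, against 20.1 in null mouse 18217 and 10.8 in null mouse 18219. The difference between the genotypes was not tested. In the same step Ezh1 went from 59.7 to 56.0 and from 61.1 to 120 CPM in the control mice, and from 60.4 to 7.52 and from 50.2 to 25.5 CPM in the null mice.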

How the results depend on the processing

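Over 52 results, 587 alternative values were computed, and 440 kept both direction and side of the threshold or stayed within the spread. Members called in LMPP to BLP numbered 2 with thinned cells, 0 when the small ALP libraries of 18219 and 18220 were left out, and 0 without each mouse. In LMPP to ALP 1 member was called by DESeq2, with mouse as replicate block and with no filter. In BLPs 1 was called between genotypes by DESeq2. With the cycle classes 6 were called by DESeq2, 2 with no replicate block, 0 with the G2 and M phase list alone, 0 with the Mki67 split and 0 to 1 without each mouse. Ezh2 from LMPP to ALP was 1.31 by DESeq2 (adjusted p = 0.00288), 1.38 with the replicate block (0.0355) and 1.32 with no filter (0.00891). Ezh2 from LMPP to BLP was 1.41 with the replicate block (0.0164; 2.12 and 0.0388 in null mice alone), 1.37 with those ALP libraries left out (0.132) and 1.28 to 1.57 without each mouse. With the classes Ezh2 was 1.12 with G2 and M phase genes alone, 1.29 with S phase genes alone, 0.66 by the Mki67 split and 1.22 to 1.56 without each mouse, and its class difference in shares of cells was 4.07 points with no thinning. In the gate comparisons the replicate block changed no other call of a member. With the classes of control mice alone, edgeR without the library block also called Ezh2 (1.64, adjusted p = 0.0493). The smallest adjusted p of a member there was 0.106 in the blocked fit. Signs turned for low members: with the classes Bmi1 was −0.40 by the Mki67 split. Ring1 was −0.19 with S phase genes alone, −0.15 thinned, −0.11 with 2 classes of equal size, −0.34 by Mki67 and −0.30 to 1.05 without each mouse. Cbx7 was −0.32 with G2 and M phase genes alone, −0.61 with S phase genes alone, −0.49 with no replicate block, −1.38 by Mki67 and −0.32 to 1.00 without each mouse. Ezh1 from LMPP to BLP was 0.06 by limma on mean log2 values and −0.94 to 0.08 without each mouse. The class difference of Ring1 in shares of cells was −2.61 points at 3 or more reads and −0.48 to 6.65 without each mouse. With the longest coding transcript as length the median Cbx8 share of Cbx7 plus Cbx8 was 48.2% and the median Bmi1 share of Pcgf1 to Pcgf6 11.3%. The causes were not tested. Depth limits the shares of cells, and 2 mice a group limit every genotype test.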
